A study of Mus musculus with 6 samples.

Results

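The genes described here are the subunits of the NOX2 NADPH oxidase and the GTPase Rac2, followed from bone marrow macrophages (BMMs) to osteoclasts. The 6 genes were chosen by symbol from a table of 49315 genes: Cybb, Cyba, Ncf1, Ncf4, Rac2 and Cybc1. The gene name column gave 5 of them, and Cybc1, which the table lists under an older name, was found by its Ensembl identifier. The study compared the transcriptomes of wild-type mouse BMMs at day 0 (3 libraries) with those of osteoclasts obtained by culture with RANKL, the cytokine that drives osteoclast formation, at 75 ng/mL until day 4 (3 libraries). BMMs were expanded with a culture supernatant that supplies M-CSF, of which the osteoclast medium held a smaller share. No library comes from BMMs kept to day 4 without RANKL, so RANKL, M-CSF supply and time in culture cannot be told apart. Values are TPM, a unit of transcript abundance scaled by gene length and to the library, so levels of different genes can be set side by side.

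NOX2 is the oxidase with which phagocytes make superoxide. Its catalytic core, gp91phox (Cybb), passes electrons from NADPH across the membrane to oxygen and is held in the membrane by p22phox (Cyba). The chaperone EROS (Cybc1) is needed for that pair to mature. The oxidase is silent until cytosolic proteins dock on the core: among them the organizer p47phox (Ncf1), p40phox (Ncf4), which binds a phosphoinositide of phagosomes, and a Rac GTPase in its GTP-bound state. Rac2 is the Rac of blood cells and also steers the actin cytoskeleton, which osteoclasts remodel to seal themselves onto bone. Osteoclasts come from the same lineage as phagocytes, and reactive oxygen species have been studied as signals in their formation.

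The 6 genes split into those that rose and those that fell, and the split ran through the oxidase itself. Cybb and Ncf1 were lower in osteoclasts than in BMMs, Ncf4 and Rac2 were higher, and Cybc1 and Cyba changed less. Of the 6 genes, 6 passed the filter on low values (a mean of at least 1 TPM) and 6 passed the test, with 3 higher and 3 lower at an adjusted p under 0.05 from limma. Over all 12325 genes tested, 68.9% passed, 45.3% higher and 23.5% lower, and a call is so common here that the count says little about the 6 genes. Of the genes called, 65.8% were higher, against 49.8% after median-ratio scaling, which shifted the log2 change of the median gene from 0.19 to 0.00. The BMM and osteoclast libraries did not overlap for 6 of the 6 genes, as for 73.5% of all genes tested (47.4% higher and 26.1% lower in osteoclasts). The median log2 fold change of the 6 genes was -0.02, with a range of -1.43 to 1.39, while that of all genes tested was 0.19. In these bulk samples, fewer cells of a type and less RNA per cell cannot be told apart.

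**Figure D1:**
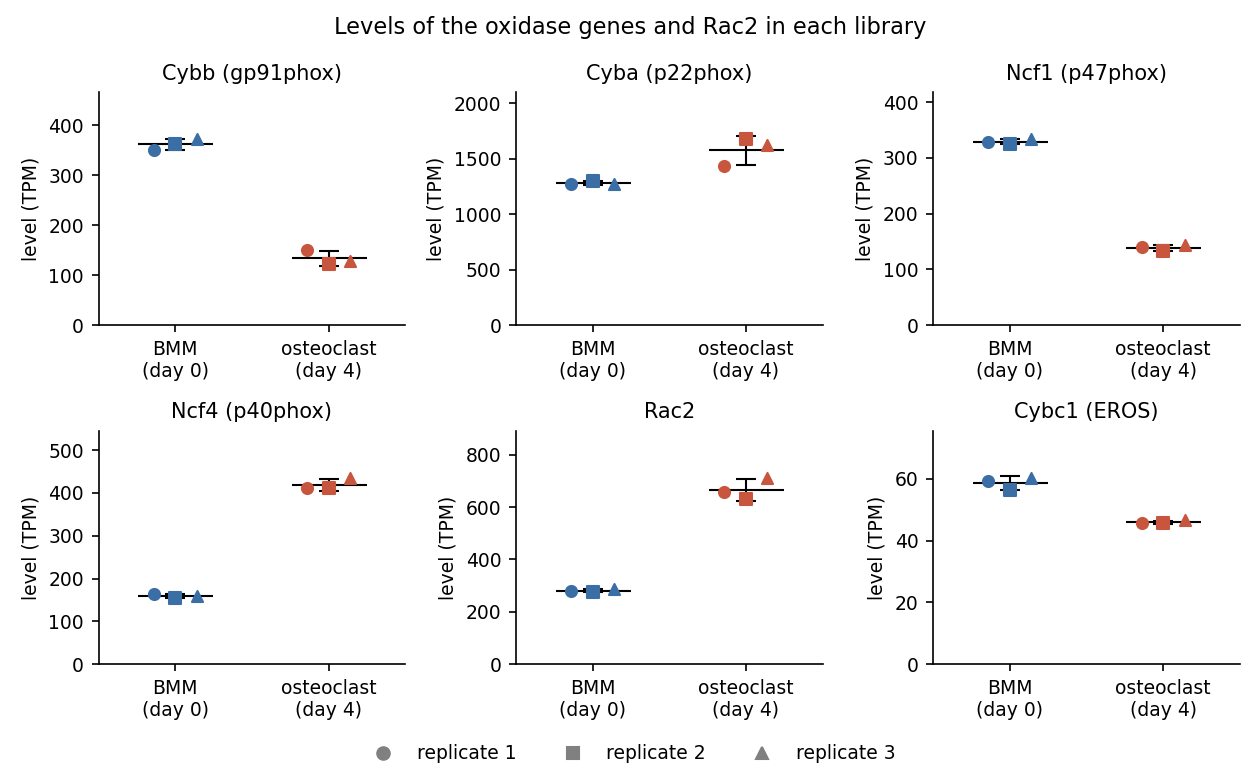
Level in TPM (vertical axes, each from 0) of the 6 genes in the 3 BMM and 3 osteoclast libraries, where symbols mark replicates, the long bar is the mean and the short bars are 1 SD to each side. Cybb, Ncf1 and Cybc1 sit lower in every osteoclast library than in every BMM library, and Ncf4, Rac2 and Cyba sit higher.

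The membrane core changed unevenly. Cybb (ENSMUSG00000015340, chromosome X of GRCm38 from 9435252 to 9487771, minus strand) measured 350 TPM, 362 TPM and 373 TPM in BMM replicates 1 to 3, and 151 TPM, 123 TPM and 128 TPM in osteoclast replicates 1 to 3. The groups were far apart, and osteoclast replicate 1 was the highest of its group. Cybb averaged 362 ± 11.8 TPM in BMMs and 134 ± 15.2 TPM in osteoclasts (n = 3 each, SD), a mean 2.70-fold lower, or -1.43 on the log2(TPM + 1) scale (SE 0.08, limma adjusted p = 1.4e-06). Only 4.2% of all genes tested had a lower log2 fold change. By mean level, Cybb ranked 338 among all genes in BMMs and 1102 in osteoclasts.

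Cyba, the partner that anchors gp91phox, was the most abundant of the 6 genes in both groups. Cyba (ENSMUSG00000006519, chromosome 8 from 122424776 to 122432930, minus strand) measured 1277 TPM, 1300 TPM and 1269 TPM in BMM replicates 1 to 3, and 1432 TPM, 1682 TPM and 1620 TPM in osteoclast replicates 1 to 3. The osteoclast libraries lay above the BMM libraries but were more scattered, and replicate 1, the highest for Cybb, was the lowest for Cyba. The means were 1282 ± 16.1 TPM and 1578 ± 130 TPM (n = 3 each, SD), a 1.23-fold rise, or 0.30 on the log2 scale (SE 0.07, limma adjusted p = 0.0039). This change was close to the median of all genes tested, and 43.1% of them had a larger one. The log2 fold change of Cyba did not pass the test under any of the 3 ways of rescaling the libraries, at 0.08 after median-ratio scaling (adjusted p = 0.43), 0.01 after quantile normalization (adjusted p = 0.9) and 0.12 after mitochondrial and the 20 most abundant genes were removed (adjusted p = 0.093), all from limma.

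Cybc1, the maturation chaperone, was the least abundant of the 6. Cybc1 (ENSMUSG00000039294, chromosome 11 from 121222588 to 121229322, minus strand) measured 59.4 TPM, 56.2 TPM and 60.4 TPM in BMM replicates 1 to 3, and 45.7 TPM, 45.6 TPM and 46.5 TPM in osteoclast replicates 1 to 3. The osteoclast libraries were nearly level, with a coefficient of variation of 1.07%, the smallest of the 6 genes in that group. The mean fell 1.28-fold, from 58.7 ± 2.2 TPM to 46.0 ± 0.492 TPM (n = 3 each, SD), a difference of -0.34 on the log2 scale (SE 0.05, limma adjusted p = 6.1e-04).

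The cytosolic subunits Ncf1 and Ncf4 moved in opposite directions. Ncf1, the organizer (ENSMUSG00000015950, chromosome 5 from 134220053 to 134229625, minus strand), measured 329 TPM, 324 TPM and 334 TPM in BMM replicates 1 to 3, and 141 TPM, 132 TPM and 143 TPM in osteoclast replicates 1 to 3. Both groups were tight and far apart. The mean fell 2.37-fold, from 329 ± 5.05 TPM to 139 ± 5.76 TPM (n = 3 each, SD), a difference of -1.24 on the log2 scale (SE 0.05, limma adjusted p = 2.6e-07). Ncf4, the phosphoinositide-binding subunit (ENSMUSG00000071715, chromosome 15 from 78244801 to 78262580, plus strand), went the other way. It measured 165 TPM, 154 TPM and 159 TPM in BMM replicates 1 to 3, and 411 TPM, 411 TPM and 436 TPM in osteoclast replicates 1 to 3, so that the lowest osteoclast library was more than double the highest BMM library. The mean rose 2.63-fold, from 159 ± 5.12 TPM to 419 ± 14.4 TPM (n = 3 each, SD), a difference of 1.39 on the log2 scale (SE 0.05, limma adjusted p = 1.5e-07). Of all genes tested, 7.56% had a larger log2 fold change than Ncf4 and 5.60% had a smaller one than Ncf1.

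Rac2 rose with Ncf4. The gene (ENSMUSG00000033220, chromosome 15 from 78559167 to 78572783, minus strand) measured 279 TPM, 275 TPM and 287 TPM in BMM replicates 1 to 3, and 657 TPM, 630 TPM and 712 TPM in osteoclast replicates 1 to 3. Every osteoclast library was well above every BMM library. The mean rose 2.37-fold, from 281 ± 6.19 TPM to 666 ± 42.1 TPM (n = 3 each, SD), a difference of 1.24 on the log2 scale (SE 0.06, limma adjusted p = 4.9e-07), and its rank by level among all genes moved from 439 to 206. Rac2 and Ncf4 lie on the same chromosome with 297 kb between them. Of the 17 annotated genes in between, 6 were tested, of which 2 were higher and 2 were lower. Over all genes tested the shares were 45.3% and 23.5%, and a shared cause for Ncf4 and Rac2 was not tested.

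The order of the 6 levels changed with differentiation. In BMMs, the order was Cyba, Cybb, Ncf1, Rac2, Ncf4 and Cybc1, and the ranges of neighbouring genes over the 3 libraries did not overlap, although the Cybb mean was only 1.10-fold above the Ncf1 mean. In osteoclasts it was Cyba, Rac2, Ncf4, Ncf1, Cybb and Cybc1, and the ranges of Ncf1 and Cybb overlapped, so these neighbours did not differ beyond their spread. The summed level of the 6 genes was 2458 to 2483 TPM in BMMs and 2838 to 3087 TPM in osteoclasts, of which Cyba made up 51.9% and 52.9% of the summed means. Cybb and Ncf1 stood above Rac2 and Ncf4 in BMMs and below them in osteoclasts.

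A ratio of 2 genes in the same library does not change with a factor applied to that whole library, and 6 such ratios were compared. With 3 libraries against 3, the smallest p of the two-sided exact permutation test is 0.1, so none could pass 0.05. The ratio of Cyba to Cybb, the 2 chains of the membrane core, was 3.65, 3.59 and 3.40 in BMM replicates 1 to 3, and 9.47, 13.7 and 12.6 in osteoclast replicates 1 to 3. It was thus higher in 3 of 3 osteoclast libraries than in any BMM library, 3.32-fold on average (log2 difference 1.73, exact permutation p = 0.1, adjusted p = 0.12 over the 6 ratios). The ratio of Ncf1 to Ncf4 turned over. It was 2.00, 2.10 and 2.11 in BMMs and 0.343, 0.322 and 0.328 in osteoclasts, 6.26-fold lower (log2 difference -2.65, exact permutation p = 0.1, adjusted p = 0.12). There were about 2 Ncf1 transcripts for each of Ncf4 in BMMs and about 3 of Ncf4 for each of Ncf1 in osteoclasts.

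The ratio of Ncf1 to Cybb stayed near 1. It was 0.941, 0.896 and 0.896 in BMMs and 0.930, 1.08 and 1.11 in osteoclasts, and the groups overlapped (log2 difference 0.19, exact permutation p = 0.2, adjusted p = 0.2). The chaperone Cybc1 fell less than its client, and its ratio to Cybb went from 0.155 to 0.170 in BMMs to 0.302 to 0.372 in osteoclasts, 2.12-fold higher (exact permutation p = 0.1, adjusted p = 0.12). The ratio of Rac2 to Cybb was below 1 in each BMM library, at 0.760 to 0.799, and 4.34 to 5.54 in osteoclasts, 6.42-fold higher (log2 difference 2.68, exact permutation p = 0.1, adjusted p = 0.12).

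**Figure D2:**
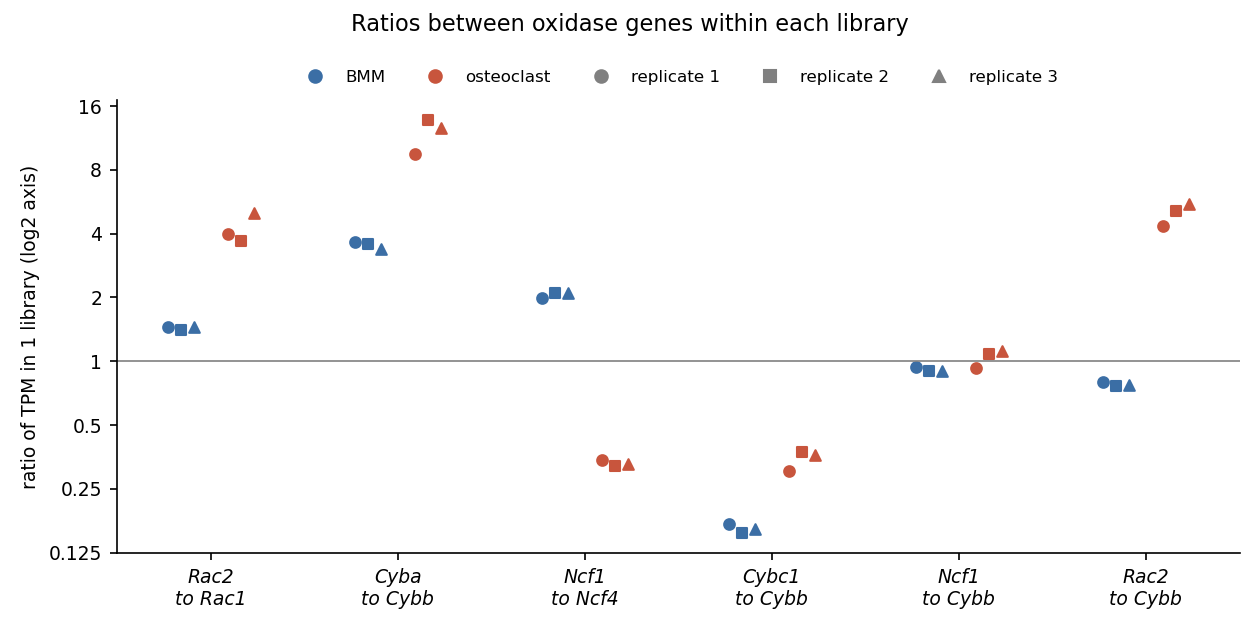
Ratio of the TPM of 2 genes within each library (vertical axis on a log2 scale), for 6 pairs of genes, with BMM and osteoclast libraries in 2 colours and replicates by symbol. The groups are apart for 5 ratios and overlap for Ncf1 to Cybb, which stays between 0.896 and 1.11.

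Rac1 can take the place of Rac2 in activating the oxidase, and the ratio of Rac2 to Rac1 was higher in each osteoclast library than in any BMM library. Rac1, expressed in most cell types, measured 193 TPM, 197 TPM and 197 TPM in BMM replicates 1 to 3, and 164 TPM, 171 TPM and 142 TPM in osteoclast replicates 1 to 3. It was lower in each osteoclast library, by a difference of -0.30 on the log2 scale (SE 0.07, limma adjusted p = 0.0057). The ratio of Rac2 to Rac1 was 1.44, 1.40 and 1.46 in BMMs and 4.01, 3.68 and 5.0 in osteoclasts, 2.93-fold higher (log2 difference 1.55, exact permutation p = 0.1, adjusted p = 0.12). Osteoclast replicate 3 had the highest Rac2, the lowest Rac1 and so the highest ratio. Rac1 overlaps Daglb on the opposite strand and 48.1% of its transcript windows of 150 bases are also found in Daglb transcripts, and Daglb measured 31.3 to 33.5 TPM in BMMs and 14.6 to 15.8 TPM in osteoclasts, so the level of Rac1 is less certain than that of Rac2.

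Little or none of the sequence of the 6 genes is shared with other annotated transcripts. None of the windows of 150 bases from transcripts of Cybb, Cyba, Ncf4, Rac2 and Cybc1 occurred in a transcript of another gene, while 1.94% of those of Ncf1 occurred in Gtf2ird2, which overlaps it on the opposite strand and measured 4.15 to 4.93 TPM in BMMs and 5.70 to 7.01 TPM in osteoclasts. Cybc1 overlaps Hexdc and Cyba overlaps a gene model listed at 0 in every library, again on opposite strands. Hexdc measured 3.29 to 6.39 TPM over the 6 libraries. Whether strand was used in counting is not given in the sources used here, so such pairs may have exchanged reads.

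Promoter windows from RefSeq on GRCm38.p6 were found for Cybb, Ncf1, Cyba and, with 2 start sites, Cybc1. The windows of the 2 genes that fell most and that of Cyba, which fell in no library, are shown because the known regulators of CYBB in human phagocytes include PU.1 (Spi1) and the interferon regulatory factors IRF1 and IRF8, whose own levels changed in these libraries. Each runs 5′ to 3′ on the strand of the gene, from 250 bases before the start site to 30 after it. Capitals mark matches on either strand to GAGGAA (a PU.1-type motif), GAAA repeated after 2 bases of any kind (the type bound by interferon regulatory factors), TGANTCA (an AP-1-type motif) and CCAAT. The Cybb window is chrX:9469295-9469574 and lies inside the span of the GENCODE gene. The Ncf1 window is chr5:134229596-134229875, and the Cyba window is chr8:122432911-122433190, all on the minus strand.
Cybb: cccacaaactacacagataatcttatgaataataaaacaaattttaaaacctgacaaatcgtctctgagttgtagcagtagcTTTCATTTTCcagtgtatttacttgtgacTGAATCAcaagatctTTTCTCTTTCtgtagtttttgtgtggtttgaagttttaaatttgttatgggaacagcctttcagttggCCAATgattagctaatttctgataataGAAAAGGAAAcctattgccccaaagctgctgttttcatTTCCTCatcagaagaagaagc
Ncf1: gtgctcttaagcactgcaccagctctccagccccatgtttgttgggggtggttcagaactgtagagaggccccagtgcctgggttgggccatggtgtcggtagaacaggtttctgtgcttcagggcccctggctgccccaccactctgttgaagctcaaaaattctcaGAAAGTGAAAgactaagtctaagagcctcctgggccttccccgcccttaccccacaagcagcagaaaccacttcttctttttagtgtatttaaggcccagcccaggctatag
Cyba: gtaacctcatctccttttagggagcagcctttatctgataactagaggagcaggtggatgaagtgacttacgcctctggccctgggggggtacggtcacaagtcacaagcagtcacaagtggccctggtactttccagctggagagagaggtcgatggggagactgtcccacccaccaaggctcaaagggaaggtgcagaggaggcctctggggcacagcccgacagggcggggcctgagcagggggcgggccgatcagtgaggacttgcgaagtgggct

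The Cybb window held 3 matches to the GAAA repeat, at bases -168 to -159 and -124 to -115 on the opposite strand and at -29 to -20 on the strand of the gene, counted from the start site. Ncf1 held 1, at -82 to -73, and Cyba and Cybc1 held 0. Of 32851 promoter windows of 300 bases, 3.44% hold at least 1 match to this motif. Cybb also held GAGGAA on the opposite strand at 10 to 15 (28.3% of all windows hold it), TGANTCA at -139 to -133 (7.81%) and CCAAT at -56 to -52 (37.4%). Cybc1 held a CCAAT in one window and a GAGGAA in the other, and TATAAA, found in 13.6% of all windows, matched none of the 5. No motif searched matched the Cyba window. The matches do not overlap each other, and they describe letters, not binding. The shares are over all windows and were not matched to the base composition of each window. Base composition differs among the full windows of 300 bases that were searched, which run 20 bases past those printed, with 35.3% G and C for Cybb, 54.0% for Ncf1 and 60.7% for Cyba, against a median of 52.7% and a 5th percentile of 36.3% over all windows.

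**Figure D3:**
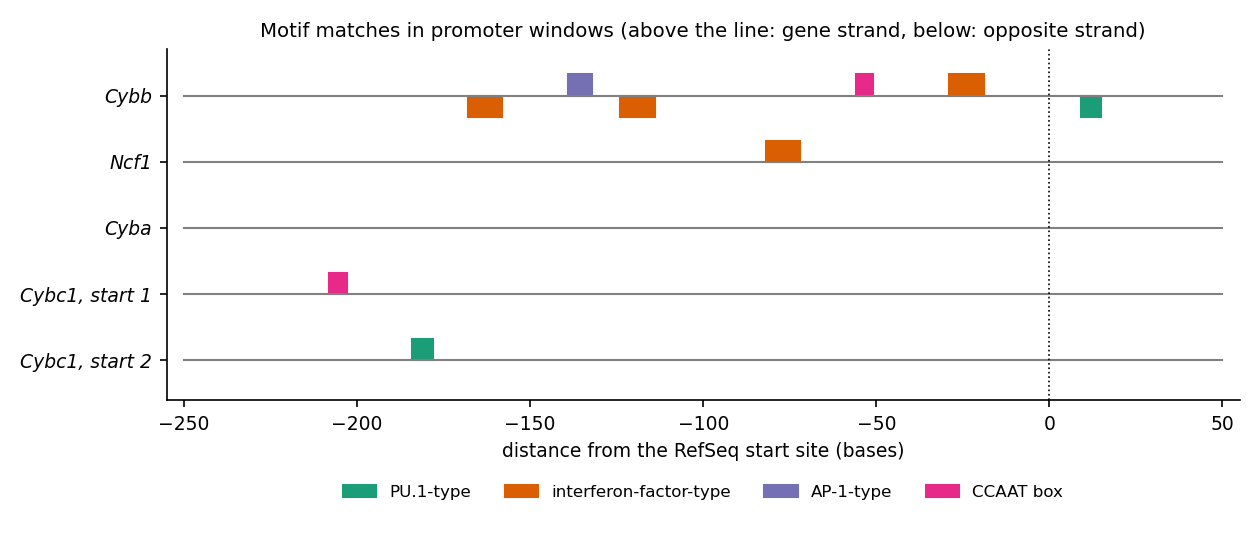
Positions of motif matches in the RefSeq promoter windows of Cybb, Ncf1, Cyba and Cybc1 (2 start sites), against distance from the start site in bases. Matches on the strand of the gene are drawn above the line and those on the opposite strand below, and Cybb holds 3 of the interferon-factor type, Ncf1 holds 1 and Cyba holds 0.

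Factors known at the CYBB promoter, mostly from human cells, went in both directions. Of the 9 listed, 6 were tested, of which 2 rose, 2 fell and 2 did not pass (limma, adjusted p under 0.05). Their median log2 change was -0.10 beside 0.19 for all genes tested, of which 45.3% rose and 23.5% fell. Irf8, an interferon regulatory factor of the macrophage lineage, measured 70.5 TPM, 72.5 TPM and 74.8 TPM in BMM replicates 1 to 3, and 21.2 TPM, 20.4 TPM and 23.0 TPM in osteoclast replicates 1 to 3, a difference of -1.71 on the log2 scale (SE 0.06, limma adjusted p = 1.7e-07). Irf1, its relative, was 60.0 to 61.7 TPM in BMMs and 29.0 to 32.2 TPM in osteoclasts, a log2 fold change of -0.97. Both were lower in every osteoclast library, as Cybb and Ncf1 were and as 26.1% of all genes tested were. Whether either factor acts on Cybb or Ncf1 in these cells was not tested. Spi1, which encodes PU.1, instead rose from 345 to 354 TPM in BMMs to 695 to 734 TPM in osteoclasts, a log2 fold change of 1.04. Cux1, a repressor of human CYBB, also rose, by 0.56 on the log2 scale, while Elf1 (log2 fold change -0.16) and Yy1 (-0.04) did not pass the test. After median-ratio scaling, the log2 fold change of Elf1 (-0.37) and the log2 fold change of Yy1 (-0.25) passed it, and that of Elf1 also did without osteoclast replicate 1 (-0.23).

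No other NADPH oxidase reached the level of NOX2 in either group. Of the 9 genes listed as other oxidases and their partners, 0 passed the filter on low values. Nox1, the oxidase first described in colon, was 0.0733 to 0.106 TPM in BMMs and 0.398 to 0.765 TPM in osteoclasts, higher without overlap but under 1 TPM in each library. Nox4, an oxidase that needs p22phox but not the cytosolic subunits, was at most 0.0291 TPM in any library. Duoxa1, a maturation factor of the dual oxidases, was listed at 0 in the 3 BMM libraries and at 0.527 to 0.696 TPM in osteoclasts, while Duox1 was listed at 0 throughout. These genes were named after their values were seen, and the reads behind such low values are unknown.

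None of the tested GTPases and inhibitors listed around Rac2 passed the test as higher. Of 8 tested genes listed as Rac-related GTPases and RhoGDIs, 3 fell, 0 rose and 5 missed the threshold. Over all genes tested, 23.5% fell and 45.3% rose. The 8 had a median log2 change of -0.13, beside 0.19 over all genes. By the unadjusted p, 0 were higher at p under 0.05 as well. The lowest was Rac3, with 19.2 ± 0.831 TPM in BMMs and 5.05 ± 0.495 TPM in osteoclasts (n = 3 each, SD, log2 fold change -1.74), and Rhog, a GTPase that acts upstream of Rac, had a log2 fold change of -0.56. The highest were Rap1b (0.25) and Rap1a (0.25), small GTPases of which Rap1a has been found bound to the NOX2 core, and neither passed the test. Without osteoclast replicate 3, both passed it, at 0.41 and 0.45. After median-ratio scaling, 6 of these genes were lower in place of 3.

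Among exchange factors, which load Rac with GTP, listed with the Dock adaptors Elmo1 and Elmo2, most fell and 1 rose steeply. Of 10 tested, 7 were lower, 2 were higher and 1, Prex1, did not pass, beside 23.5% lower and 45.3% higher over all genes. The 7 include Elmo1 (log2 fold change -0.47) and Elmo2 (-0.79), which are not exchange factors themselves. Dock5, an exchange factor known to be needed for bone resorption by mouse osteoclasts, was 5.72 TPM, 5.59 TPM and 5.83 TPM in BMM replicates 1 to 3, and 89.9 TPM, 61.4 TPM and 88.4 TPM in osteoclast replicates 1 to 3, a difference of 3.57 on the log2 scale (SE 0.14, limma adjusted p = 2.1e-07). The median log2 change of the 10 was -0.40. Tiam1 was also higher, by 0.94 on the log2 scale. Dock2, the main exchange factor for Rac in leukocytes, went from 85.7 to 88.0 TPM in BMMs to 29.1 to 42.0 TPM in osteoclasts, a difference of -1.24 on the log2 scale (SE 0.12, limma adjusted p = 3.6e-05), and Vav3 had one of -1.09. Prex1, which Gβγ and a phosphoinositide activate, had a log2 fold change of 0.32 (adjusted p = 0.051 from limma), and passed as higher without osteoclast replicate 2, at 0.47, and with the filter at a mean of 5 TPM.
Of 6 GTPase-activating proteins, which switch Rac off, 4 were lower and 2 were higher, and the median was -0.66 in log2. The shares over all genes tested were 23.5% and 45.3%, with a median of 0.19. Arhgap25, a negative regulator of the oxidase in human phagocytes, had a log2 fold change of -1.32 and Arhgap15 one of -1.30. Bcr (1.17) and Abr (0.42), a related pair that turn Rac off in mouse phagocytes, were the 2 that were higher, and Abr did not pass the test after median-ratio scaling (0.21).

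Signalling enzymes that activate the oxidase were lower more often than higher. Of 13 tested, 6 were lower, 3 were higher and 4 missed the threshold, and their median log2 change was -0.17. Over all genes tested, 23.5% were lower and 45.3% higher, with a median of 0.19. The lowest were Pik3cg, the phosphoinositide kinase that G protein-coupled receptors switch on, with 63.8 ± 2.70 TPM in BMMs and 24.7 ± 4.05 TPM in osteoclasts (n = 3 each, SD, log2 fold change -1.34), and Mapk14, the p38 kinase that phosphorylates p47phox (-0.81). Pak1, a kinase that Rac activates and that also acts on p47phox, was the highest, with 33.9 ± 0.297 TPM in BMMs and 65.4 ± 5.0 TPM in osteoclasts (log2 fold change 0.93), followed by Prkca (0.51) and Akt1 (0.23). Akt1 did not pass the test under any of the 3 rescalings, and the log2 fold change of Prkca did not pass after quantile normalization (0.26). Prkca was also low, at 0.788 to 0.860 TPM in BMMs and 1.41 to 1.72 TPM in osteoclasts.

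Proteins listed as associated with the oxidase also fell for the most part. The list is mixed, and includes Nrros, a negative regulator of gp91phox, which was lower as well (log2 fold change -1.055). Of 10 tested, 6 were lower, 2 were higher and 2, Msn and Sh3pxd2b, missed the threshold. All genes tested were lower in 23.5% and higher in 45.3% of cases. The median log2 change of the 10 was -0.53, beside 0.19 over all genes. Rab27a, a GTPase of secretory granule traffic, was lowest, with a log2 fold change of -2.18, from 7.75 ± 0.798 TPM in BMMs to 0.928 ± 0.112 TPM in osteoclasts (n = 3 each, SD). Coro1a, an actin regulator that binds p40phox, went from 345 to 352 TPM to 146 to 171 TPM (log2 fold change -1.16), the opposite of Ncf4 itself. The log2 fold change of Msn passed without osteoclast replicate 2 (0.17), and the log2 fold change of Sh3pxd2b passed without osteoclast replicate 3 (-0.41) and under the 3 rescalings (-0.51 to -0.47). The highest was Sh3pxd2a, which encodes the podosome scaffold Tks5, a relative of p47phox, at 8.52 to 9.10 TPM in BMMs and 28.2 to 40.3 TPM in osteoclasts (log2 fold change 1.88, standard error 0.13, adjusted p = 3.6e-06 from limma). P4hb, a disulfide isomerase that was the other higher gene (0.19), had the opposite sign after median-ratio scaling (-0.02) and quantile normalization (-0.02), without passing the test.

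**Figure D4:**
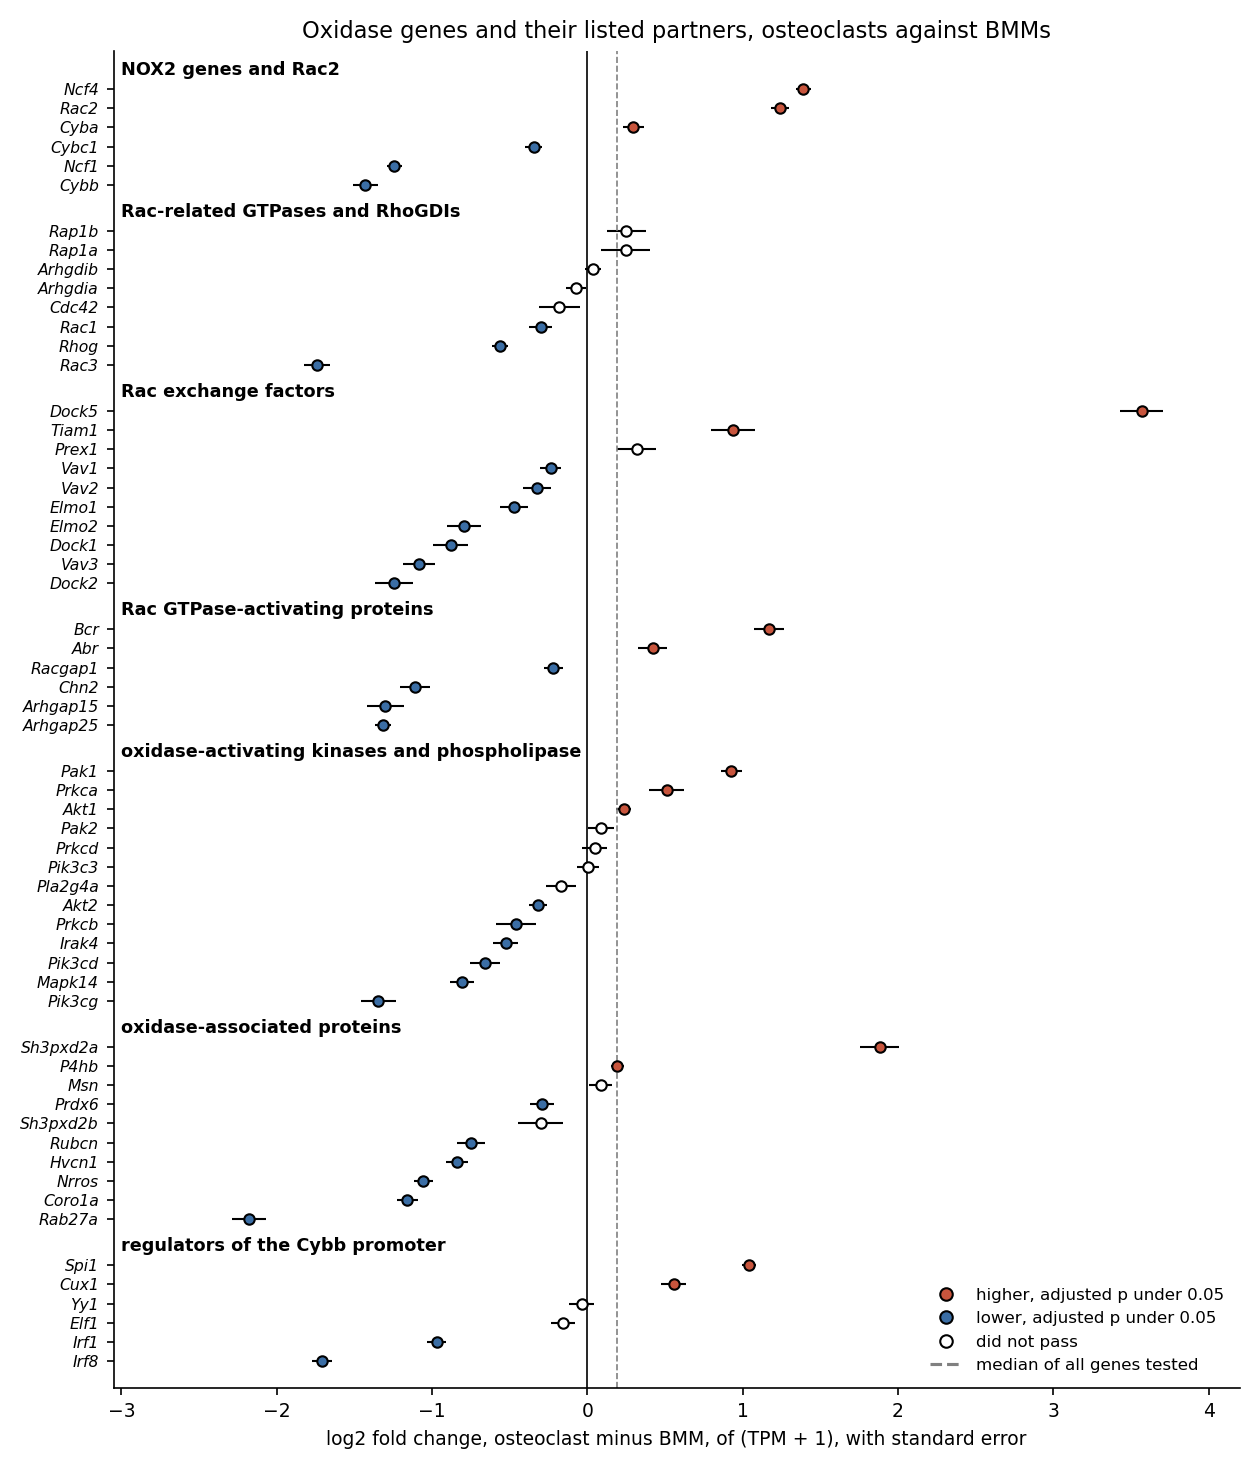
Log2 fold change of (TPM + 1), osteoclast minus BMM, with its standard error (horizontal axis), for the tested genes of the NOX2 set and of 6 lists of partners, coloured by the limma call at an adjusted p under 0.05, with the median of all genes tested (0.19) as a dashed line. Ncf4 and Rac2 lie to the right and Cybb and Ncf1 to the left, Dock5 is farthest right at 3.57 and Rab27a farthest left at -2.18.

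The supply of NADPH and the disposal of its products were described by counts. Of 4 cytosolic NADPH sources, 4 were lower, the lowest being G6pdx, the first enzyme of the pentose phosphate pathway (log2 fold change -1.63), followed by Idh1 (-1.31), Pgd (-0.62) and Me1 (-0.40), beside the 23.5% of all genes tested that were lower. Of 10 tested genes that dispose of superoxide and peroxide, 6 were higher and 4 were lower, beside 45.3% of all genes higher. The median of the 10 was 0.24 in log2. Under each of the 3 rescalings, 4 were higher and 4 were lower. Prdx3 (1.5) and Sod2 (1.46), both of mitochondria, were highest, and Cat (-1.69), catalase, and Prdx1 (-1.37), a cytosolic peroxiredoxin, were lowest, followed by the peroxiredoxin genes Prdx5 (-0.93) and Prdx4 (-0.48).

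The genes whose profile over the 6 libraries was most like that of each of the 6 were found by the Euclidean distance of log2(TPM + 1) values centred on their own mean, among the 12325 genes tested. With 8486 genes called between 2 groups, near matches are easy to find, so these are descriptions. For Cybb they were Eef1a2 (distance 0.08), Kif5c (0.09) and Dtx3l (0.10). For Ncf1 they were Pik3r6 (0.06), a regulatory subunit of the kinase that Pik3cg encodes, the RNA sensor Ifih1 (0.07) and Abhd12 (0.07). Among the 6 genes themselves, Cybb and Ncf1 were each other's nearest, at a distance of 0.31, and so were Rac2 and Ncf4, at 0.21. Cyba and Cybc1 were also each other's nearest, at 0.81, although they changed in opposite directions.
For Rac2 they were Lonp1 (0.06), Trap1 (0.07) and Traf2 (0.08), the first 2 a protease and a chaperone of mitochondria. For Ncf4 they were Htra2 (0.07), Grem1 (0.07) and AI506816 (0.08), of which Grem1 was at only 0.14 TPM in BMMs and 2.05 TPM in osteoclasts. For Cyba they were Ddx28 (0.05), Gtf2h5 (0.06) and Cst3 (0.07), and for Cybc1 they were Fggy (0.03), Dctn5 (0.05) and Maf1 (0.06).

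Markers of the cell types that could be in the cultures moved with these changes, and their part in them was not tested. For comparison with the counts that follow, 45.3% of all genes tested were higher in osteoclasts and 23.5% were lower. Of 12 osteoclast markers, 12 were higher, with Acp5 and Ctsk the most abundant and a summed level of 847 to 906 TPM in BMMs and 40253 to 40465 TPM in osteoclasts. Of 12 macrophage markers, 10 were lower, 1 was higher (Cd68) and 1 missed the threshold (Cx3cr1), and their median log2 change was -1.56. Their summed level, mostly Lyz2, was 77027 to 79532 TPM in BMMs and 29181 to 30312 TPM in osteoclasts. Cybb (-1.43) and Ncf1 (-1.24) fell by amounts near the median of these markers, which spread widely, from -4.21 to 0.35. Neutrophils carry the same oxidase at high levels, and of 14 of their markers 13 were tested and 13 were lower, with a summed level of 3138 to 3416 TPM in BMMs and 18.7 to 33.2 TPM in osteoclasts, where the granule proteases Elane and Ctsg were listed at 0 in each library. S100a9, the most abundant of them, was 1663 to 1786 TPM in BMMs and 6.76 to 13.6 TPM in osteoclasts. Ly6g, which was not tested, was only 1.16 to 1.72 TPM in BMMs and Cxcr2 1.99 to 2.42 TPM, so the summed level rests on other genes of the list. Ncf4 and Rac2, which neutrophils also express, were higher in the libraries where the listed neutrophil markers were lower. Of 4 stromal and osteoblast markers tested, 3 were higher, led by Col1a1, with a summed level of 6.87 to 7.38 TPM in BMMs and 108 to 135 TPM in osteoclasts. Markers of B cells (0.794 to 10.5 TPM summed in any library), T cells (0.845 to 6.32 TPM) and dendritic cells (0.594 to 1.48 TPM) were low, and Trac made up nearly all of the T cell sum in osteoclasts.

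Across the series, 11869 to 12463 genes reached 1 TPM in a library, and the 20 most abundant genes took 31.9% to 32.8% of all TPM in BMMs and 19.9% to 22.1% in osteoclasts. Over genes (not independent of each other), the Pearson correlation of log2 values was 0.995 to 0.996 between BMM libraries and 0.987 to 0.992 between osteoclast libraries. Animals and cultures are not identified in the labels, which only mark biological replicates, and p-values therefore measure the spread between these libraries alone. Read numbers cannot be recovered from TPM, so the depth behind each value is unknown.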

How the data were processed

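RNA of 3 BMM and 3 osteoclast libraries was used as the authors deposited it, in TPM, scaled for gene length and summing to 1000000 in each library. Their notes name bcl2fastq 2.17, Trimmomatic 0.36 and STAR 2.5.2b with mm10; the counter, its use of strand and the route to TPM are not given. Identifiers were looked up in GENCODE vM21 (48970 of 49315 matched).

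The test was limma 3.58.1 (R 4.3.3) on log2(TPM + 1), which understates changes of low genes, for genes averaging at least 1 TPM (12325), with a 2-group design, trended empirical Bayes, two-sided p-values and Benjamini-Hochberg adjustment over all of them at 0.05. Ratios were compared by exact permutation (SciPy 1.17.1). Tested on simulated data for this comparison (12325 genes, 5 runs), limma called 54.8% of genes shifted by 0.5 in log2, 89.2% of those shifted by 1 and 0.0544% of the others. Only 500 genes were shifted by each amount over the 5 runs, against 60625 unshifted, while 68.9% of genes were called in the data. The simulation also did not rescale libraries to a fixed sum, so these rates need not hold where most genes change.

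The members and lists were chosen with earlier results of these data known. Genes named were the members, those in the ratios, each list's 2 highest and 2 lowest, its exceptions and (where at most 3) its genes that did not pass, the 2 most abundant of each marker list, and 3 nearest profiles per member. Daglb, Gtf2ird2, Hexdc, Elmo1, Elmo2, Nrros, Cx3cr1, Elane, Ctsg, Ly6g, Cxcr2 and the low oxidases were named after their values were seen. Alternatives were other pseudocounts (0.1, 0.5) and filters (none, 5 TPM), 3 rescalings (median-ratio, quantile, and without mitochondrial and the 20 most abundant genes), no trend, a replicate block, leaving out each library, and a minimum change of 1 in log2. Some genes are not reported here. Python 3.11.15, pandas 2.3.3, NumPy 2.4.6 and matplotlib 3.10.9 served for tables and plots.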

Additional observations from a re-analysis of the deposited data

How the results depend on the processing

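Cybb, Ncf1, Cybc1, Ncf4 and Rac2 kept their direction and passed the test under 15 of 15 alternative fits, with log2 fold changes of -1.64 to -1.37, -1.45 to -1.21, -0.55 to -0.32, 1.18 to 1.42 and 1.03 to 1.28 in that order, and the largest adjusted p from limma was 0.0061, for Cybc1. Cyba ranged from 0.01 to 0.37 and did not pass under the 3 rescalings. When a change of at least 1 in log2 was also required, 2 of the 6 genes were higher and 2 were lower. Median-ratio scaling moved the median of all genes tested from 0.19 to 0.00 and the share of called genes that were higher from 65.8% to 49.8%, and every fold change of the 6 genes moved down with it. The 6 ratios kept their direction when each library was left out. For ratios whose groups did not overlap, this outcome was fixed in advance. With the replicate number as a block, 3 of the 6 genes were higher and 3 were lower, as without it, and over all genes 5502 were higher and 2821 lower against 5585 and 2901. The paper describes no pairing in its test, so the numbers were not taken as pairs. The deviations of same-numbered libraries from their group means correlated at -0.05, -0.00281 and -0.07. Differently numbered libraries correlated at -0.07 to 0.10. With so few libraries, these values cannot show whether the numbers mark pairs. Of the 47 genes tested singly, Prex1 was the only one whose call the block changed (adjusted p = 0.03 from limma).

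Counts of partners depended more on the settings. With that requirement, the numbers higher and lower were 0 and 1 for Rac-related GTPases and RhoGDIs, 1 and 2 for exchange factors, 1 and 3 for GTPase-activating proteins, 0 and 1 for kinases and the phospholipase, 1 and 3 for associated proteins, 1 and 1 for promoter regulators, 2 and 2 for disposal enzymes and 0 and 2 for NADPH sources. Under median-ratio scaling and quantile normalization, 6 genes of the list of Rac-related GTPases and RhoGDIs and 4 promoter regulators were lower, and 1 GTPase-activating protein and 1 associated protein were higher. Rescaling after removal of mitochondrial and abundant genes gave 6 lower genes in the list of Rac-related GTPases and RhoGDIs, 1 higher GTPase-activating protein and 1 higher associated protein, and quantile normalization gave 1 higher kinase. With no filter, 2 genes of the list of other oxidases and their partners and 1 of that of Rac-related GTPases and RhoGDIs were higher, and at a mean of 5 TPM 2 GTPase-activating proteins were lower. Without single libraries, 0 to 2 Rac-related GTPases or RhoGDIs were higher, the 2 without osteoclast replicate 3. The log2 fold change of P4hb was -0.02 after median-ratio scaling and -0.0185 after quantile normalization. The cause of these shifts was not tested. No counting error can be given, since depth is unknown.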
